A study of Mus musculus with 6 samples.

Results

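The Wnt pathway was followed through 52 genes for its ligands, receptors, inhibitors and intracellular core, out of 52636 genes counted. The members were chosen by role from what is known of the pathway, without genes listed only as its targets, and each symbol was matched to its Ensembl identifier in the count tables. RNA was sequenced from mouse E14 cells, an embryonic stem cell line, after 4 days of retinoic acid at 5 µM (the labels write µm). There were 3 libraries of enhancer cluster-KO cells (KO), which lack an enhancer cluster that the series title ties to HoxB activation, and 3 libraries of wild-type cells (WT). Both groups came from stem cells grown in serum with LIF at 10 ng/mL, the MEK inhibitor PD0325901 at 1 µM and the GSK3 inhibitor CHIR99021 at 3 µM, and all of these but serum are absent from the differentiation medium as labelled. The design text calls the libraries of a group biological replicates of NPC, read here as neural progenitor cells, while the cell type label says embryonic stem cells. How many knockout clones they represent was not given in the sources used here, so a difference between the groups and a difference between clones cannot be told apart.

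Wnt proteins are secreted lipid-modified ligands. They bind Frizzled receptors together with the co-receptors Lrp5 or Lrp6, and this keeps Axin, Apc, Gsk3 and casein kinase 1 from marking beta-catenin for breakdown, so that beta-catenin can act with TCF/LEF factors in the nucleus. In the early embryo and in stem cells the pathway is known for roles in self-renewal, in mesoderm formation and, along with retinoic acid, in giving neural tissue a posterior character.

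Of the 52 members, 48 had enough counts to be tested, 27 were lower in KO, 12 were higher and 9 did not pass, in the quasi-likelihood test of edgeR at an adjusted p of 0.05 (Benjamini-Hochberg, over all genes tested). Of all 15816 genes tested, 68.6% passed, 34.0% lower and 34.5% higher, so a call alone says little here. A call with a change of at least 1 on the log2 scale was less common, with 9.47% of all genes lower and 11.5% higher. Among members it was seen for 14 lower genes, 10 of them ligands, and for 4 higher genes. The median log2 fold change (KO over WT) was -0.27 over the tested members and 0.01 over all tested genes. Of the 48, 4 (Wnt2b, Wnt7a, Wnt10a and Rspo3) passed the filter on low counts only through the WT libraries and so could only be lower. Among the other 44, 23 were lower and 12 higher, with a median of -0.22.

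**Figure D1:**
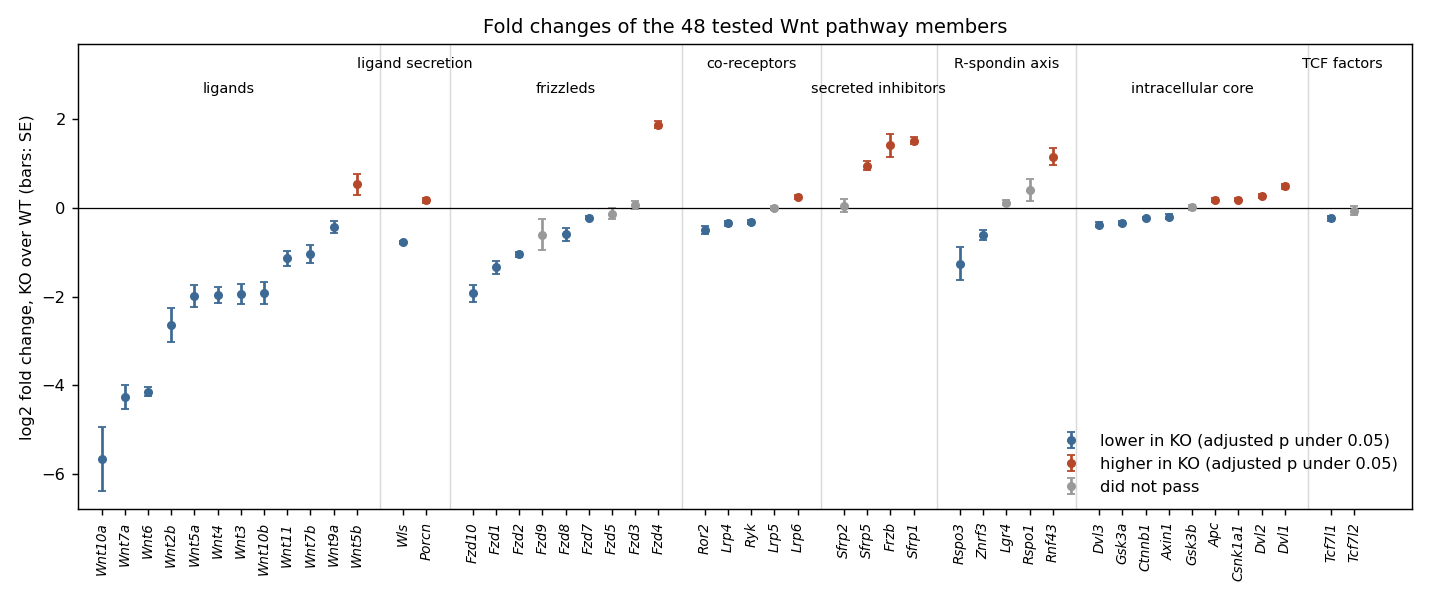
Log2 fold change (KO over WT, y axis) of each tested member, grouped by role along the x axis (3 libraries per group). Bars are the SE derived from the edgeR test. Most ligands lie below 0, down to -5.67 for Wnt10a, fitted from 1 count in KO, the secreted inhibitors lie at or above 0, and the intracellular core lies within 0.5 of 0.

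Libraries held 7780368 to 8521902 gene counts in KO and 8208615 to 9472916 in WT. In KO replicate 1, genes over ribosomal RNA repeats made up 1.04% of counts, and 0.0726 to 0.118% elsewhere. Mitochondrial genes took 2.58 to 2.89% of counts in KO and 1.67 to 1.73% in WT. Markers of neural progenitors ranged widely. Sox1 averaged 1.84 ± 0.607 CPM in KO and 1.98 ± 0.521 CPM in WT (SD, n = 3 each), and Fabp7 had 0 counts in all 6 libraries, a floor of 3 counts per group being 0.124 CPM in KO and 0.114 CPM in WT. Pax6 averaged 4.76 ± 0.582 CPM in KO and 2.12 ± 0.209 CPM in WT, and Nes 33.6 ± 3.49 CPM in KO and 231 ± 6.84 CPM in WT. Sox2, also a pluripotency gene, averaged 26.7 ± 1.71 CPM in KO and 74.9 ± 2.63 CPM in WT, and Zic2 7.88 ± 0.845 CPM in KO and 17.4 ± 3.17 CPM in WT. Of 9 tested neural progenitor markers 2 rose and 5 fell, with summed CPM of 116 to 132 in KO and 368 to 388 in WT. Among all tested genes 34.5% rose and 34.0% fell.

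Extraembryonic endoderm markers rose in 9 of 12 and fell in 1, and none of the 12 was at 0. Over all tested genes 34.5% were higher and 34.0% lower. Sox17 fell (log2 fold change -0.65, SE 0.12), and Foxa2 and Ttr did not pass. Summed CPM was 9786.3 to 10044.5 in KO and 3551.1 to 3608.5 in WT. Most of this sum came from Col4a1 and Lamb1. Col4a1 averaged 4920 ± 169 CPM in KO and 1902 ± 36.3 CPM in WT, and Lamb1 2900 ± 42.3 CPM in KO and 875 ± 18.7 CPM in WT. Immediate early genes fell in 7 of 8, with summed CPM of 234 to 243 in KO and 444 to 471 in WT. Pluripotency markers rose in 3 and fell in 3 of 7. All 3 falls were of at least 1 on the log2 scale, and 0 of the rises were. Summed CPM of the pluripotency list was 882 to 908 in KO and 1066 to 1098 in WT. Neuron markers rose in 1 and fell in 4 of 6, and mesoderm markers fell in 2 of 3, with Msgn1 at 0 counts throughout. Neural crest and mesenchyme markers rose in 3 and fell in 3 of 9. What part these markers or the mitochondrial and ribosomal RNA shares have in the results on the Wnt genes was not tested. In bulk RNA, fewer cells expressing a gene and less of its RNA per cell cannot be told apart.

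Nearly all Wnt ligands that could be tested fell. Of 14, 12 were tested, 11 were lower in KO and 1, Wnt5b, was higher. All 11 that fell lay, in every KO library, below every WT library, and Wnt5b lay above. Over all tested genes 70.9% had groups apart, 35.4% with KO below and 35.5% with KO above. The 3 ligands Wnt2b, Wnt7a and Wnt10a had to be lower if they differed, since they were counted well only in WT. Among the other 9 ligands, 8 fell, with a median of -1.91 on the log2 scale.

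Wnt6, a ligand of surface ectoderm and of early endoderm, was the most abundant ligand of WT cells. Its CPM (counts scaled to library size with TMM factors) was 4.64, 7.86 and 4.68 in KO replicates 1 to 3, against 103, 101 and 98.9 in WT replicates 1 to 3. The WT libraries differ little from each other and stand far above all KO libraries. The log2 fold change was -4.14 (SE 0.11, edgeR adjusted p = 3.91e-21). Wnt6 (ENSMUSG00000033227) lies on chr1:74771892-74785322 of GRCm38, on the plus strand.

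Its neighbour Wnt10a lies on the same strand at chr1:74791516-74804179, 6193 bases further on. It had 0, 1 and 0 counts in KO, against 21, 33 and 20 in WT. With 1 count against 74, the ratio of KO to WT was 0.0146 (95% exact interval for counting error 0.000365 to 0.0839). Both of these adjacent genes were lower in every KO library than in any WT library.

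Wnt7a, which in the nervous system is known for roles in progenitor growth and synapse formation, had a CPM of 0.515, 0.749 and 0.703 in KO, against 14.7, 11.2 and 12.9 in WT. KO libraries held 4 to 6 counts of it and WT libraries 105 to 124. The log2 fold change was -4.26 (SE 0.27, edgeR adjusted p = 2.74e-13). Wnt7a passed the filter only through WT, so it could only be called lower. Its relative Wnt7b, known from lung and brain vessel development, fell less, with 3.61, 4.49 and 4.57 CPM in KO, against 9.93, 8.83 and 7.36 CPM in WT (log2 fold change -1.04, SE 0.21).

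Wnt3, the ligand needed for the primitive streak in the mouse, had 3.09, 1.75 and 3.63 CPM in KO, against 10.3, 11.6 and 10.9 CPM in WT (log2 fold change -1.94, SE 0.22). Wnt4, known from kidney and female reproductive tract, had 3.86, 4.87 and 4.92 CPM in KO, against 18.3, 14.4 and 20.7 CPM in WT (log2 fold change -1.96, SE 0.18). Wnt10b had 2.32, 2.62 and 1.87 CPM in KO, against 8.28, 7.13 and 10.4 CPM in WT (log2 fold change -1.91, SE 0.25). These 3 genes and Wnt5a had close fold changes, and in each the groups were well apart. Wnt2b had 1.80, 0.125 and 1.29 CPM in KO, against 7.69, 5.00 and 7.73 CPM in WT (log2 fold change -2.65, SE 0.38), with a single count in KO replicate 2.

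Ligands best known for signalling without beta-catenin were not alike. Wnt5a, which acts through Ror2 in cell movement, had 2.45, 2.00 and 1.99 CPM in KO, against 9.11, 9.78 and 6.63 CPM in WT (log2 fold change -1.99, SE 0.25). Wnt11, known from gastrulation movements, had 9.15, 7.61 and 6.21 CPM in KO, against 14.1, 17.8 and 18.5 CPM in WT (log2 fold change -1.14, SE 0.16). Wnt5b, the close relative of Wnt5a, had 5.28, 7.49 and 6.21 CPM in KO, against 3.31, 5.11 and 4.66 CPM in WT. Its groups lay just apart, and its log2 fold change of 0.53 (SE 0.23, edgeR adjusted p = 0.0454) did not pass in 7 of the 15 alternative settings. The edgeR adjusted p was 0.192 without KO replicate 2, 0.0684 without KO replicate 3, 0.193 without WT replicate 1 and 0.0617 without WT replicate 3, and with DESeq2 it was 0.0995. Wnt9a moved least among the ligands that fell, with 12.9, 15.6 and 12.1 CPM in KO, against 16.7, 20.6 and 17.3 CPM in WT (log2 fold change -0.43, SE 0.14, edgeR adjusted p = 0.00685, and 0.0599 without WT replicate 2).

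The ligands below the filter were rare in both groups. Wnt3a had 3, 0 and 2 counts in KO, against 0, 0 and 5 in WT. Wnt8a, an early mesoderm ligand, had 4, 3 and 2 counts in KO, against 10, 15 and 7 in WT, and its groups lay apart. Fitted with no filter beyond 1 count, Wnt8a was lower (log2 fold change -1.69, edgeR adjusted p = 0.0196) and Wnt3a did not pass (adjusted p = 0.983).

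**Figure D2:**
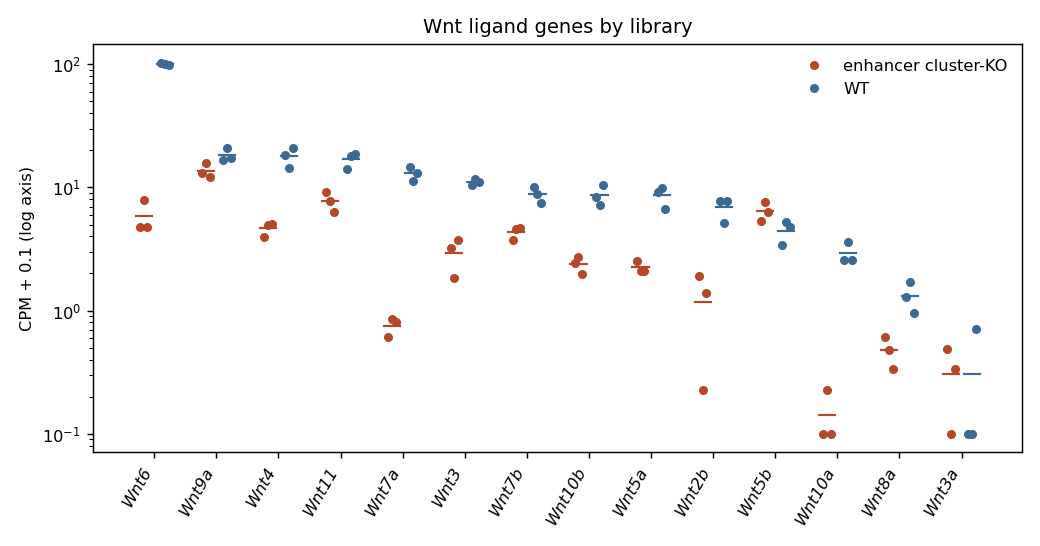
CPM plus 0.1 on a log axis for each Wnt ligand gene (x axis) in each library, KO left of WT within a gene, with a line at each group's mean. Wnt6 stands near 100 CPM in WT and at 4.64 to 7.86 CPM in KO, and Wnt5b is the one ligand with its KO points above its WT points.

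Levels of different genes were compared in TPM, counts per length of exon scaled to the same total in each library. Over tested genes the median log2 ratio of KO over WT was -0.042 in TPM, against 0.009 for the fitted log2 fold changes. The summed TPM of the 14 ligands was 43.4, 55.6 and 47.1 in KO, against 255, 253 and 255 in WT. The mean was 48.7 ± 6.26 TPM in KO and 254 ± 0.916 TPM in WT (SD, n = 3 each). Wnt6 made up 16.7 ± 3.72% of the sum in KO and 59.0 ± 1.22% in WT. Without Wnt6 the sum was 37.2 to 44.0 TPM in KO and 101 to 108 TPM in WT, so the other ligands together were lower as well.

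The order of the ligands by TPM differed too. In KO, Wnt9a was first at 12.8 ± 2.12 TPM, followed by Wnt6 at 8.26 ± 2.95, Wnt5b at 7.53 ± 1.68 and Wnt11 at 5.77 ± 0.799 TPM, and each of these overlapped the next one between libraries. In WT, Wnt6 led at 150.1 ± 3.05 TPM and stood apart from Wnt9a at 17.8 ± 2.07 TPM. Then came Wnt4, Wnt7a, Wnt11 and Wnt3 at 11.6 to 13.8 TPM, which overlapped between libraries.

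Promoter sequence is shown for ligands with different behaviour and for the receptor gene that rose most. The windows are the 250 bases before the RefSeq start (GRCm38.p6), 5′ to 3′ on the gene's strand, and capitals mark TCF/LEF words on either strand. The words searched were CTTTGAA with its variant CTTTGAT, and likewise CTTTGTA with its variant CTTTGTT, and no other motif was searched. Wnt6 (chr1:74771642-74771891, plus strand) and Wnt7a (chr6:91411354-91411603, minus strand) fell most among the ligands with over 10 counts in the 3 KO libraries together, and neither window holds a match. Wnt11 (chr7:98834862-98835111, plus strand, 1 of its 2 starts) fell less and Wnt5b (chr6:119449387-119449636, minus strand, 1 of its 3 starts) rose, and each of these windows holds 1, while the other windows of both genes hold 0. Fzd4 (chr7:89404116-89404365, plus strand), the receptor gene that rose, holds none. Among the other ligands with a window, Wnt2b, Wnt3, Wnt3a, Wnt4, Wnt9a and Wnt10b, none has a match, although Wnt9a fell least.
Wnt6: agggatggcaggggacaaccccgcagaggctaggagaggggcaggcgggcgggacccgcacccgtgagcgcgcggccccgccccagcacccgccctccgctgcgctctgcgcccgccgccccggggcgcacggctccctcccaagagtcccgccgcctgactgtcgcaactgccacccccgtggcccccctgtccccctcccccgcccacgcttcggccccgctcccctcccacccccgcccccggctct
Wnt7a: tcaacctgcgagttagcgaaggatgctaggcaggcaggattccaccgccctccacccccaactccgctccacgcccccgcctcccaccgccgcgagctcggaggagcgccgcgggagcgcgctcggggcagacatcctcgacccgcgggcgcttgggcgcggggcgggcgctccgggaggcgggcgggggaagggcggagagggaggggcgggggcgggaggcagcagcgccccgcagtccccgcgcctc
Wnt11: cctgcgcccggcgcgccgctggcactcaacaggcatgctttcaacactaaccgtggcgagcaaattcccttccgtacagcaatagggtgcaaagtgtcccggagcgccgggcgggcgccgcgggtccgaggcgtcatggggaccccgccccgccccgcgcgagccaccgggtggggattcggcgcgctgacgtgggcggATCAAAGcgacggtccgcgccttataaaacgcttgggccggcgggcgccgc
Wnt5b: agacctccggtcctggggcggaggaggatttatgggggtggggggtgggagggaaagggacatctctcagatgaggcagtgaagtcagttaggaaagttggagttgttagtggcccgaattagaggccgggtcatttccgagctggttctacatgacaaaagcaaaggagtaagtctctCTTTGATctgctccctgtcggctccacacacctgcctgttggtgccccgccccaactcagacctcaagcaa
Fzd4: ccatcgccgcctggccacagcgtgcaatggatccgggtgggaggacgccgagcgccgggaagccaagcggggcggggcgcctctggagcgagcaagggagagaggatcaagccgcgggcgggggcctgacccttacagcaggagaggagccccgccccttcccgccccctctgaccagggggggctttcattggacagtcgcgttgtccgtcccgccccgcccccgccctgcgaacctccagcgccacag
Of the 52 members, 33 matched the RefSeq promoter table, with 39 windows. A match was found in 5 of these windows (12.8%), those of Fzd7, Gsk3a, Tcf7l2, Wnt11 and Wnt5b, and in 4874 of all 32851 windows (14.8%). The members' share is close to that of promoters at large, and a match is a description of the letters only. The share of G and C was 79.6% for Wnt6 and 77.6% for Wnt7a, and also 84.4% for Wnt9a, the ligand that fell least, with a median of 52.4% over all windows.

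Ligand secretion needs Porcn, the enzyme that attaches the lipid, and Wls, the carrier that takes Wnt proteins to the cell surface. Wls had 216, 218 and 222 CPM in KO, against 367, 377 and 376 CPM in WT. The libraries of a group were close and the groups apart (log2 fold change -0.77, SE 0.040, edgeR adjusted p = 3.36e-15). Porcn had 164, 171 and 146 CPM in KO, against 142, 135 and 149 CPM in WT. Its call (log2 fold change 0.18, SE 0.054, edgeR adjusted p = 0.00521) came with groups that overlap.

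The Frizzled receptors changed in make-up more than in sum. Of 10 genes 9 were tested, 5 fell, 1 rose and 3 did not pass, where 34.0% of all tested genes fell and 34.5% rose. Fzd4, the receptor that in the eye binds Norrin as well as Wnt proteins, had 100.2, 97.8 and 98.4 CPM in KO, against 26.6, 28.8 and 24.7 CPM in WT. The log2 fold change was 1.88 (SE 0.070, edgeR adjusted p = 3.46e-18). This 3.69-fold rise was the largest among the 12 members that rose.

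Fzd2 had 58.1, 61.5 and 54.2 CPM in KO, against 115, 118 and 124 CPM in WT (log2 fold change -1.04, SE 0.056, edgeR adjusted p = 8.12e-15). Fzd1 had 8.50, 12.1 and 11.4 CPM in KO, against 27.3, 32.4 and 21.0 CPM in WT (log2 fold change -1.34, SE 0.15). Fzd10 had 3.35, 3.12 and 3.75 CPM in KO, against 12.8, 11.6 and 14.7 CPM in WT (log2 fold change -1.93, SE 0.19). For all 3 genes the groups were separate.

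Fzd7, the main Frizzled of mouse and human pluripotent cells, was the most abundant in both groups. It had 239, 244 and 234 CPM in KO, against 279.7, 282 and 272 CPM in WT, a small fall (log2 fold change -0.22, SE 0.041). Fzd8 also fell (log2 fold change -0.59, SE 0.14). Fzd3 at 0.06 (SE 0.094), Fzd5 at -0.12 (SE 0.13) and Fzd9 at -0.60 (SE 0.34) did not pass, and their groups overlap. Without WT replicate 1, Fzd9 passed (-0.83, edgeR adjusted p = 0.0473). Fzd6 had 0 counts in all 6 libraries.

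By TPM, Fzd7 held 55.3 ± 0.277% of the Frizzled sum in KO and 51.8 ± 0.609% in WT (SD, n = 3 each). Fzd2 held 16.6 ± 0.722% in KO and 27.5 ± 1.26% in WT. Fzd4 held 15.4 ± 0.368% in KO and 3.36 ± 0.214% in WT. In KO, Fzd4 at 46.2 ± 2.30 TPM overlapped Fzd2 at 49.7 ± 4.29 TPM between libraries, whereas in WT it stood at 12.9 ± 0.989 TPM, overlapping Fzd10 and below Fzd7, Fzd2 and Fzd1 on average. The summed TPM of all Frizzled genes was 279.6 to 315 in KO and 382 to 391 in WT, with means of 299.8 ± 18.2 in KO and 385 ± 5.44 in WT. In CPM the sum was 486, 484 and 473 in KO replicates 1 to 3, against 540, 550 and 534 in WT. KO replicate 1 was the lowest KO library in TPM and the highest in CPM.

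**Figure D3:**
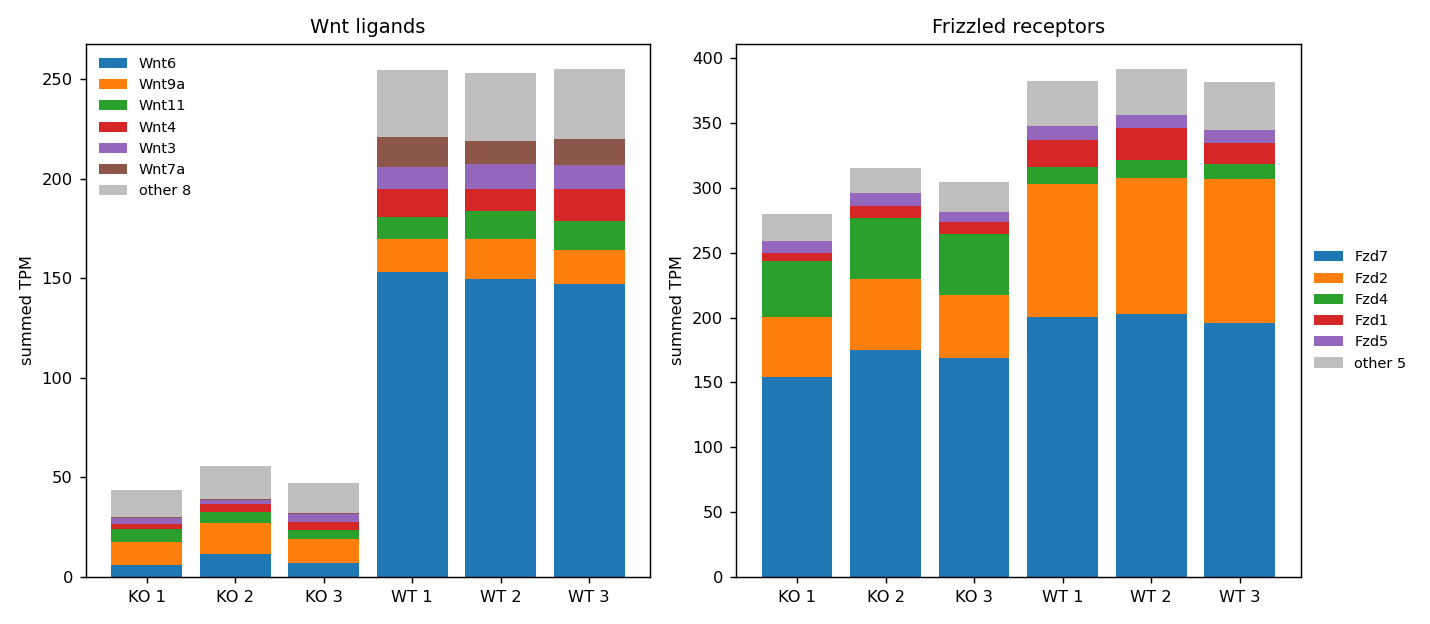
Summed TPM (y axis) of the Wnt ligand genes (left) and Frizzled genes (right) in each library, KO bars left of WT bars, stacked by gene with the less abundant genes in grey. The ligand sum is 43.4 to 55.6 in KO and 253 to 255 in WT, mostly by the Wnt6 segment, and the Fzd4 segment is wider in KO.

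Co-receptors moved little. Lrp6, the main partner of Frizzled in beta-catenin signalling, rose (log2 fold change 0.24, SE 0.049). Its relative Lrp5 had 103, 103 and 97.0 CPM in KO, against 104, 100.3 and 98.2 CPM in WT, with overlapping groups (log2 fold change 0.01, SE 0.048). Lrp4, a relative that dampens Wnt signalling in bone, fell (log2 fold change -0.34, SE 0.057). The kinase-like receptor Ryk had 129, 133 and 131 CPM in KO, against 166, 160.4 and 163 CPM in WT, a small fall with separate groups (log2 fold change -0.32, SE 0.044). Ror2, the receptor for Wnt5a, also fell (log2 fold change -0.49, SE 0.080).

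Secreted Frizzled-related proteins, which bind Wnt ligands outside the cell, moved the other way from the ligands. Of 4 genes 3 rose, 0 fell and 1 did not pass, where 34.5% of all tested genes rose and 34.0% fell. At an unadjusted p under 0.05 none could count as falling, since all 4 fitted log2 fold changes were above 0. With DESeq2 and limma-voom the number that fell was also 0. Sfrp1 had 62.9, 63.0 and 60.8 CPM in KO, against 22.7, 20.5 and 22.1 CPM in WT (log2 fold change 1.52, SE 0.082, edgeR adjusted p = 1.05e-14). Sfrp5 had 36.1, 34.4 and 38.6 CPM in KO, against 18.7, 18.3 and 19.4 CPM in WT (log2 fold change 0.96, SE 0.10). Both genes were tight within a group and far apart between groups.

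Frzb, also called Sfrp3, had 4.77, 6.49 and 6.32 CPM in KO, against 2.25, 1.91 and 2.45 CPM in WT (log2 fold change 1.41, SE 0.26). Sfrp2 had 15.7, 15.1 and 12.3 CPM in KO, against 15.7, 10.5 and 15.3 CPM in WT, and its groups overlap (log2 fold change 0.06, SE 0.16). The summed TPM of the 4 genes was 123, 135 and 137 in KO, against 74.9, 64.4 and 75.5 in WT. Set against the ligand sum of the same library, the sum of these 4 genes was 2.43 to 2.90 times as high in KO and 0.255 to 0.296 times as high in WT. This ratio is of RNA levels, both its parts moved, and it leaves out other secreted inhibitors. Those, 13 genes on a list of non-members, had a summed CPM of 179 to 186 in KO and 273 to 297 in WT, the opposite direction, against 118 to 119 in KO and 51.3 to 59.4 in WT for the 4 genes here.

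**Figure D4:**
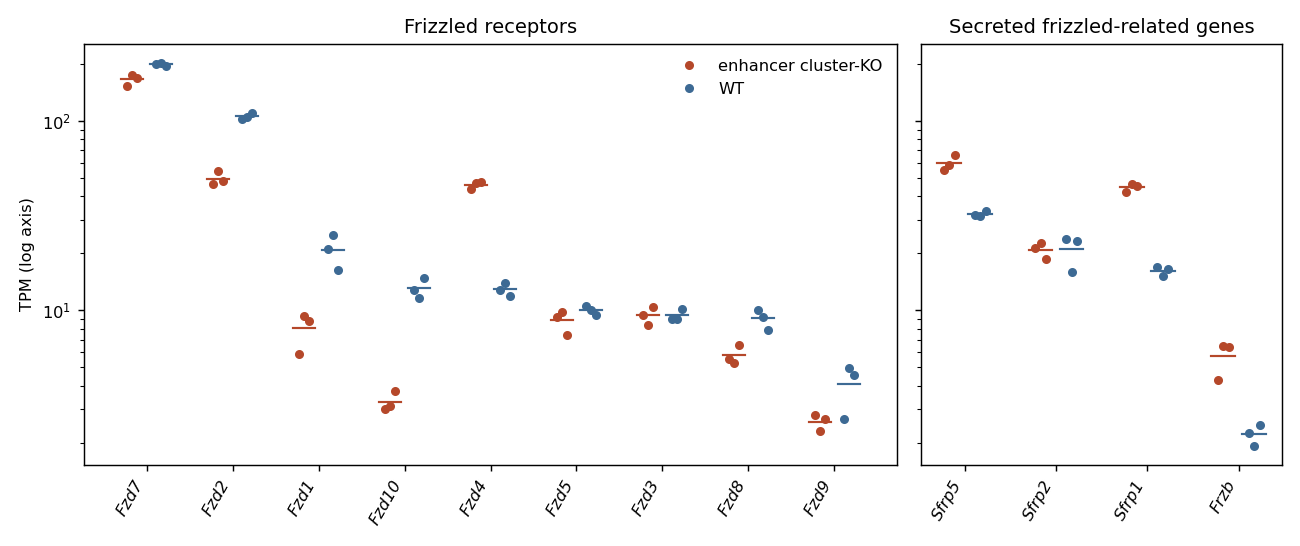
TPM on a log axis for the 9 tested Frizzled genes (left) and the 4 secreted Frizzled-related genes (right) in each library, KO left of WT within a gene, with a line at each group's mean. Fzd4, Sfrp5, Sfrp1 and Frzb have all KO points above all WT points, while Fzd2, Fzd1 and Fzd10 have them below.

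R-spondins raise Wnt signalling by binding Lgr receptors and removing the ubiquitin ligases Znrf3 and Rnf43, which otherwise clear Frizzled from the surface. The ligases moved in opposite directions. Znrf3 had 23.2, 20.1 and 21.2 CPM in KO, against 31.0, 31.8 and 35.7 CPM in WT (log2 fold change -0.61, SE 0.10). Rnf43 had 12.5, 8.49 and 11.6 CPM in KO, against 4.73, 5.42 and 4.42 CPM in WT (log2 fold change 1.15, SE 0.19, edgeR adjusted p = 9.49e-06). In both genes the groups were separate. Both are members here and are also known targets of beta-catenin in other tissues.

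Rspo3 had 0.902, 1.12 and 2.23 CPM in KO, against 3.78, 2.55 and 4.05 CPM in WT (log2 fold change -1.26, SE 0.36, edgeR adjusted p = 0.00375). It passed the filter only through WT, so it could only be called lower. Rspo1 did not pass at 0.41 (SE 0.25), although its KO libraries (4.62 to 5.02 CPM) all lay above its WT libraries (2.70 to 4.15 CPM). Rspo2 was too rare to test, with 2 to 6 counts in KO libraries and 5 to 7 in WT libraries. The receptor Lgr4 had 84.1, 90.2 and 86.2 CPM in KO, against 84.8, 79.1 and 76.0 CPM in WT, with groups that overlap (log2 fold change 0.12, SE 0.056). It passed without WT replicate 1 and with upper-quartile scaling (edgeR adjusted p = 0.0292 and 0.0153).

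The intracellular core, abundant in both groups, moved by less than 0.5 on the log2 scale in either direction. Of 9 genes, 4 rose, 4 fell and 1, Gsk3b, did not pass, where 34.5% of all tested genes rose and 34.0% fell. Ctnnb1, encoding beta-catenin, had 955, 942 and 988 CPM in KO, against 1122.8, 1115.3 and 1129.0 CPM in WT, a small fall with separate groups (log2 fold change -0.22, SE 0.027, edgeR adjusted p = 6.03e-08). Csnk1a1, the casein kinase that first marks beta-catenin, had 622, 585 and 618 CPM in KO, against 523, 538 and 538 CPM in WT (log2 fold change 0.19, SE 0.034).

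Dishevelled genes, which carry the signal from Frizzled, split, with Dvl1 at 0.49 (SE 0.054) and Dvl2 at 0.27 (SE 0.052) rising and Dvl3 at -0.37 (SE 0.061) falling. The scaffold genes Axin1 and Apc also split, at -0.20 (SE 0.056) and 0.18 (SE 0.045). Of the GSK3 genes, Gsk3a fell (log2 fold change -0.33, SE 0.048), and Gsk3b had 115, 109 and 131 CPM in KO, against 116, 111 and 125 CPM in WT (log2 fold change 0.02, SE 0.058).

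Among the nuclear partners of beta-catenin, Tcf7l1, which mostly represses in stem cells, had 69.3, 70.4 and 72.8 CPM in KO, against 84.2, 81.2 and 83.7 CPM in WT (log2 fold change -0.23, SE 0.055). Tcf7l2 had 24.3, 28.7 and 25.2 CPM in KO, against 26.6, 28.8 and 25.9 CPM in WT, and its groups overlap (log2 fold change -0.06, SE 0.10).

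Exons of 12 members are partly covered by a gene on the other strand, and reads of the 2 strands cannot be told apart where the counting's strand setting is not given. The covered share of exon length was 28.3% for Gsk3a, 18.3% for Dvl2, 17.8% for Fzd5, 16.1% for Sfrp2, 14.6% for Ctnnb1, 13.1% for Rspo3 and at most 8.80% for Wnt5a, Wnt7b, Wnt11, Fzd6, Dvl1 and Tcf7l1. Wnt6, Wnt7a, Fzd4, Sfrp1 and Sfrp5 have no such overlap.

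Other genes of the pathway came from a list of 101 that are not members. Of 88 tested, 41 were lower (46.6%) and 25 higher (28.4%), with a median log2 fold change of -0.16. Over all tested genes 34.0% were lower and 34.5% higher. Of 8 other secreted inhibitors 6 fell and 2 rose. Dkk1, which blocks Lrp5 and Lrp6, fell by 1.47 on the log2 scale (SE 0.11), with 13.9 ± 0.986 CPM in KO and 38.5 ± 3.42 CPM in WT (SD, n = 3 each). Its relative Dkk2 fell by 4.21 (SE 0.30), with 0.531 ± 0.165 CPM in KO and 10.2 ± 0.582 CPM in WT. The enzyme gene Notum, with 38.1% of its exon length under a gene on the other strand, fell by 2.47 (SE 0.17), and Igfbp4 by 0.75 (SE 0.051). The direction seen for Sfrp1, Sfrp5 and Frzb was therefore not that of most other secreted inhibitors.

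Of 12 other receptor genes 4 rose, 3 fell and 5 did not pass, where 34.5% of all tested genes rose and 34.0% fell. Gpc4, a glypican that carries ligands at the surface, had 66.9 ± 4.49 CPM in KO and 309 ± 13.1 CPM in WT (log2 fold change -2.21, SE 0.052), whereas its relative Gpc3 had 723 ± 34.6 CPM in KO and 429 ± 3.07 CPM in WT (0.75, SE 0.036). Ror1, the relative of Ror2, fell by 1.58 (SE 0.11), and Lgr5, a receptor for R-spondins, by 3.04 (SE 0.52). Among 2 other tested ligands Rspo4, counted well only in KO, rose by 2.79 (SE 0.41), and Wnt2, counted well only in WT like Dkk2 and Lgr5, fell by 1.31 (SE 0.48).

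Other parts of the destruction complex rose in 8 (30.8%) and fell in 13 (50.0%) of 26 tested. The shares over all tested genes were 34.5% higher and 34.0% lower. Axin2, the feedback relative of Axin1, fell by 1.48 (SE 0.10), with 14.4 ± 0.443 CPM in KO and 40.3 ± 2.76 CPM in WT. The tankyrase genes Tnks and Tnks2, whose enzymes destabilise Axin, rose by 0.89 (SE 0.041) and 0.46 (SE 0.036), and the phosphatase gene Ppp2ca, with 41.3% of its exons under the other strand, was at -0.53 (SE 0.041). Other nuclear genes rose in 2 and fell in 12 of 21, with Lef1 (13.7% of exons under the other strand) at -2.40 (SE 0.16), Ctbp2 at -1.12 (SE 0.067) and Bcl9l at -0.82 (SE 0.067) falling and Tbl1xr1 at 0.72 (SE 0.047) rising.

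Listed target genes of beta-catenin fell in all 14 that were tested of 16, by 0.30 to 6.31 on the log2 scale. At an unadjusted p under 0.05 none could rise, since all 14 had already passed as lower. With DESeq2 and with limma-voom 0 rose. Over all tested genes 34.0% were lower, and the list was chosen with earlier results of these data known. The untested T had 3, 1 and 6 counts in KO, against 7, 6 and 3 in WT. Cdx4, also untested, had 3, 3 and 1 counts in KO, against 1, 0 and 0 in WT. Of the 14 tested, 4 (Sp5, Lgr5, Cdx2 and Ccn4) passed the filter only through WT. Among the 14, 7 (Axin2, Lef1, Tcf7, Nkd1, Notum, Lgr5 and Dkk1) are also other pathway genes named or counted above. Ccn4, Ccnd1 and Myc had the smallest adjusted p among them, with log2 fold changes of -6.31 (SE 0.23), -3.78 (SE 0.11) and -4.38 (SE 0.13), Ccnd1 having 23.4% of its exons under a gene on the other strand.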

How the data were processed

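Whole-number gene counts for 6 libraries were deposited by the authors, 1 table per library. Per the submitters' processing notes the tools named are HISAT2 2.1.0, HTSeq 0.9.1 and DESeq2 1.18.1 and the build is mm10. For the annotation release and the strand setting, no source used here gives them. The 5 HTSeq tally lines were left out. Identifiers were matched to GENCODE M21 (GRCm38), and 52489 of 52636 gained a symbol.

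Counts were tested with edgeR 4.0.16 (R 4.3.3), with TMM scaling, filterByExpr at a minimum count of 10, the quasi-likelihood test of KO over WT with no block and Benjamini-Hochberg adjustment over 15816 genes at 0.05. The SE is the absolute log2 fold change divided by the square root of that test's F statistic, not a spread over the libraries. CPM is TMM-scaled, and TPM uses merged exon length. The code was tested on simulated data with far fewer changed genes than passed here, so that test does not cover data with this many changes. Alternatives were 2 other scalings, 2 other filters, DESeq2 1.42.0, limma-voom (limma 3.58.1), a replicate block, each library left out, and genes of mitochondria and ribosomal repeats or with overlap on the other strand left out. Intervals and floors cover counting error only.

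Every library's value is given for members past the threshold by at least 1 on the log2 scale and for the 2 most abundant genes of each role. Gsk3b, Wnt5b, Sfrp2, Wnt3a and Wnt8a were added after their values were seen. Up to 4 genes per other pathway list are named by smallest adjusted p, and up to 3 for neural progenitor markers and target genes. Sox1, Pax6 and Nes were named in addition, and the other marker lists are given by counts or sums. From the extraembryonic endoderm list, Col4a1 and Lamb1 were named for their part in the sum. Sox17, Foxa2 and Ttr were named as its markers not called higher. Fabp7 and Msgn1 were named for their 0 counts, and T and Cdx4 as untested targets. Members and lists were chosen with earlier results of these data known.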

Additional observations from a re-analysis of the deposited data

How the results depend on the processing

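Of the 48 tested members, 44 kept their call, or lack of one, in every alternative that could be fitted, and Wnt5b, Wnt9a, Fzd9 and Lgr4 did not. The ligand that rose, Wnt5b, was lost with no filter beyond 1 count, with DESeq2 and when overlapping genes of opposite strands were dropped, so that 0 ligands were higher. Lgr4 passed with upper-quartile scaling (log2 fold change 0.16, edgeR adjusted p = 0.0153) and without WT replicate 1 (0.0292), and Fzd9 without WT replicate 1 (-0.83, adjusted p = 0.0473). Leaving out 1 library at a time gave 0 to 1 ligands higher and 10 to 11 lower, 26 to 28 members lower and 11 to 12 higher, 37 to 40 other pathway genes lower and 24 to 25 higher, 5 to 6 Frizzled genes lower and 1 higher, 3 secreted inhibitors higher, 14 target genes lower, and 5163 to 5280 of all genes lower and 5186 to 5305 higher. Without those overlapping genes 3475 genes were lower and 3549 higher, against 5385 and 5463, with fewer genes tested. On the CPM scale the log2 ratio of summed levels (KO over WT) was -2.09 for ligands, -0.17 for Frizzled genes and 1.07 for secreted inhibitors, against -2.38, -0.36 and 0.88 by TPM. Leaving out libraries gave -2.49 to -2.31, -0.40 to -0.31 and 0.81 to 0.92 by TPM. Uncalled log2 fold changes that crossed 0 were Fzd5 (-0.21 to 0.011 over left-out libraries), Lrp5 (-0.019 to 0.036, -0.0045 with no filter and -0.015 without overlapping genes), Sfrp2 (-0.12 to 0.16), Gsk3b (-0.065 to 0.074, and -0.0042 without overlapping genes) and Sox1 (-0.39 to 0.10). The cause was not tested. With the replicate number as a block 27 members were lower and 12 higher, and 5397 and 5465 of all genes. Deviations of same-numbered libraries correlated at 0.0133, 0.00486 and -0.0131, within the range of differently numbered ones (-0.0235 to 0.0189). Whether same-numbered libraries share a culture or batch cannot be told from these values. Wnt3a, Wnt8a and Rspo2 did not pass the filter. With no filter beyond 1 count, Wnt8a was lower (log2 fold change -1.69, edgeR adjusted p = 0.0196), which made 12 of 14 ligands lower, and Wnt3a (0.983) and Rspo2 (0.589) did not pass. Fzd6 had 0 counts in every library, and whether this comes from expression or from the annotation was not tested.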

Other observations

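Genes of planar cell polarity, the branch of Wnt signalling that orients cells without beta-catenin, were mixed, with 8 of 19 tested higher in KO and 6 lower. Among all tested genes 34.5% were higher and 34.0% lower. Prickle1 averaged 25.9 ± 2.15 CPM in KO and 75.5 ± 4.39 CPM in WT (SD, n = 3 each, log2 fold change -1.54, SE 0.080). Daam1, a formin gene, averaged 68.4 ± 6.50 CPM in KO and 151 ± 4.39 CPM in WT (-1.14, SE 0.056). Intu, a gene of cilium formation, averaged 37.4 ± 3.16 CPM in KO and 12.1 ± 2.24 CPM in WT (1.62, SE 0.12).

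Genes within 200 kb of Wnt6 and Wnt10a did not all move with them. Cyp27a1, a sterol hydroxylase gene, averaged 20.6 ± 2.14 CPM in KO and 7.45 ± 1.02 CPM in WT (log2 fold change 1.46, SE 0.15). Rnf25 and Stk36 also rose, at 0.36 (SE 0.091) and 0.39 (SE 0.16). Zfp142 fell by 0.69 (SE 0.069), Ihh, a hedgehog ligand gene, by 1.25 and Nhej1 by 1.13, while Ttll4, Bcs1l and Cdk5r2 did not pass. Gm29539, on the other strand inside Wnt6, had 0, 2 and 1 counts in KO, against 17, 16 and 12 in WT.

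On chromosome 11, which carries HoxB, 7 members lie at 6.24 to 90.7 Mb from the cluster. The nearest, Fzd2 and Wnt3, fell, and Rnf43 at 8.46 Mb rose.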
